A study of Mus musculus with 18 samples.

Results

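The genes of the dystrophin-glycoprotein complex were followed through muscle differentiation in 3 lines of C2C12, a mouse myoblast line whose cells fuse into multinucleate myotubes when serum is withdrawn. Of the 55450 gene rows of the count table, the 8 rows of Dmd, Utrn, Dag1, Sgca, Sgcb, Sgcd, Sntb1 and Dtna were taken by symbol. All 8 passed the filter on low counts, Dmd only through knockout myoblasts and the myotube groups.

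The study asked how the imprinted Dlk1-Dio3 cluster, whose maternal copy makes the long noncoding RNA Meg3, bears on muscle cells. RNA with polyA tails was sequenced from 6 groups of 3 libraries each (replicates A, B and C), and all lines had been transfected and sorted for EGFP. The control line was a sorted population that received the pX458 vector alone, without a guide. The overexpressor of Dlk1-Dio3 (clone 2-4) and the knockout (clone 2-7) had each been grown up from single cells after Cas9 and a pair of guides were used to delete part of the proximal promoter region of Meg3. Every line was sampled as myoblasts in medium with 10% fetal bovine serum and as myotubes on day 3 in medium with 2% horse serum. Each genotype is therefore 1 clone, set against a control population, and genotype and clone cannot be told apart. The labels do not say that the replicates came from separate cultures, so p-values measure only the spread between these libraries, which may be technical.

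Dystrophin is a long rod that ties the actin cytoskeleton of a muscle fibre to the membrane, and utrophin is its close relative, abundant in immature muscle. Both bind dystroglycan, which Dag1 encodes and which reaches through the membrane to laminin in the matrix outside. The sarcoglycans sit beside dystroglycan and hold the assembly together, and the syntrophins and dystrobrevins form its inner, signalling face. Loss of dystrophin causes Duchenne muscular dystrophy, and loss of a sarcoglycan causes limb-girdle dystrophies.

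The start regions of 6 of the 8 genes were found in a table of RefSeq promoter windows (GRCm38.p6), in 8 windows; Sntb1 and Dtna had no entry. Those of Dmd and Sgca are shown because the levels of these 2 genes ran close to each other over the 18 libraries (Pearson r = 0.94, a description). That value depends in part on a constant added to Dmd, which had 0 to 2 counts in control and overexpressor myoblasts. Each run is the 250 bases before a start, written 5′ to 3′ on the strand of the gene, with every CANNTG in capitals. That motif, the E-box, is the core sequence bound by basic helix-loop-helix factors, among them MyoD and myogenin.
Dmd, upstream start, chrX:82948620-82948869, plus strand: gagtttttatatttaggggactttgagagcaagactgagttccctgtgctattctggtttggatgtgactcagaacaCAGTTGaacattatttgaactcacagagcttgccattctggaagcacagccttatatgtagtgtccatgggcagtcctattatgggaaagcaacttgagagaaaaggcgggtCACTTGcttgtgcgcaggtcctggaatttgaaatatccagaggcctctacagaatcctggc
Dmd, internal start, chrX:85048045-85048294, plus strand: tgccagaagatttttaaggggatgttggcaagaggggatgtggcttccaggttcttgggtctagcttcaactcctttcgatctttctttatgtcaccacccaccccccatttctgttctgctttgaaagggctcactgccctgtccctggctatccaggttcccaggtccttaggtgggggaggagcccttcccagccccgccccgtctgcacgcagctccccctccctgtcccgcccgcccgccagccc
Sgca, chr11:94976328-94976577, minus strand: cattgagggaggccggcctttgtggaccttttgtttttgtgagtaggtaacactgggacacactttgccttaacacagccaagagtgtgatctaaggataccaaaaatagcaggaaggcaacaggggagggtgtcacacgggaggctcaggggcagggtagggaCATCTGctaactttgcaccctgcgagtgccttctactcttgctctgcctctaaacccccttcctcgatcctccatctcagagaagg
The upstream window of Dmd held CAGTTG 173 bases and CACTTG 61 bases before the start, and the window of Sgca held CATCTG 86 bases before it. The internal window of Dmd held no match. Utrn had 7 matches in its window, Sgcd had 2 and Sgcb had none, and the 2 overlapping windows of Dag1 shared 1. CANNTG, which reads the same on both strands, was present in 66.2% of all 32851 windows of this length, so a match is common and is given as a description of the letters. The counts are per gene and cannot separate dystrophin made from the upstream start from the shorter products made from later ones.

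Library totals ran from 41544358 to 79140702 counts. Levels are given as CPM, the usual scaling of counts by library size, with each library total first multiplied by its TMM factor, a correction for differences in library composition (0.895 to 1.084). A count of 0 allows up to 3 counts, or 0.0375 to 0.0693 CPM depending on the library, and these limits cover counting error only. Meg3 held 5222 to 7763 counts in each overexpressor library and 0 counts in all 6 control and all 6 knockout libraries. Meg3 thus separates the overexpressor line, and cannot check the knockout label against the control, so every knockout direction given here depends on the label alone. Of 5 myotube markers (Myog, Myh3, Ckm, Acta1 and Tnnt3), all were counted in every group. Their summed level was 202.9 to 315.3 CPM in the myoblasts of control, 376.7 to 625.9 CPM in those of the overexpressor and 8494.2 to 10931.2 CPM in those of the knockout. In myotubes it was 12447.9 to 12852.9 CPM in control, 19596.9 to 21477.3 CPM in the overexpressor and 27965.9 to 33186.5 CPM in the knockout.

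Between replicates, a chi-square of the counts per degree of freedom over genes set 2 libraries apart from the others of their group. Replicate C of overexpressor myotubes stood at 117.8 and 112.5 against A and B, which differed from each other by 22.8. Replicate B of overexpressor myoblasts stood at 37.3 and 33 against A and C, which differed by 8.46. Without replicate C, 6 of the 8 genes were called between overexpressor and control myotubes, as with it, with Utrn at 0.66 in place of 0.72, Sgcd at -1.83 in place of -1.68 and Sntb1 at 1.18 in place of 1.31 (log2 fold change). The uncalled difference in Dmd there went from -0.078 to -0.37 (adjusted p = 0.257), and that of Sgcb between overexpressor and knockout myotubes from 0.066 to -0.012. Without replicate B, 7 were called between overexpressor and control myoblasts, as with it, with Utrn at 0.37 in place of 0.5 (adjusted p = 0.0489). The responses called different from control in the overexpressor went from 4 to 3 without replicate C of its myotubes, where Sgca was lost (adjusted p = 0.183). With all libraries, 57.1% of all genes tested were called between overexpressor and control myotubes. The share was 40.4% between their myoblasts and 39% for the difference in response.

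Dystrophin RNA was near the floor in control and overexpressor myoblasts, present in knockout myoblasts, and higher in the myotubes of all 3 lines. Dmd (ENSMUSG00000045103, chromosome X, 82948870 to 85206141, plus strand) had 2, 0 and 0 counts in the control myoblast libraries A, B and C, and 0, 1 and 1 in those of the overexpressor. Knockout myoblasts had 16, 22 and 18 counts, or 0.344, 0.401 and 0.32 CPM. These 3 libraries lay above all 6 of the other myoblast libraries. In myotubes the control had 1.29, 1.19 and 1.61 CPM, the overexpressor 1.08, 0.888 and 1.92 CPM, and the knockout 4.32, 2.93 and 2.66 CPM. Every knockout myotube library lay above every other myotube library, and the control and overexpressor ranges overlapped.

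The rise of Dmd with differentiation was large in each line. A fitted fold against a group with 2 counts in all depends on the constant added to the counts, so the ratio of the pooled CPM is given with its exact 95% interval (Clopper-Pearson on the split of the counts), which covers counting error only. It was 103.4 (28.3 to 859.3) for control, 89.9 (24.6 to 745.6) for the overexpressor and 9.4 (7.14 to 12.6) for the knockout, and the edgeR quasi-likelihood test called Dmd higher in myotubes in all 3 (adjusted p = 2.79e-08, 3.89e-08 and 1.51e-07). The smaller ratio of the knockout line starts from a higher myoblast level, 26.7-fold that of control (7.06 to 225.9, adjusted p = 4.91e-05). Dmd entered the test only through knockout myoblasts and the myotube groups, where it was higher. Its p-values against control or overexpressor myoblasts are therefore given as a description. In myotubes Dmd was 2.43-fold higher in the knockout than in control (2.07 to 2.86; log2 fold change 1.27, SE 0.28, adjusted p = 0.000663). No difference between overexpressor and control myotubes was detected (ratio 0.935, 0.779 to 1.12, adjusted p = 0.84), and the sign of that difference turned with the scaling. The summed myotube markers, like Dmd, were higher in knockout than in the other myoblasts and were highest in knockout myotubes. They were also higher in overexpressor than in control myotubes, where no difference in Dmd was detected. Their part in the level of Dmd was not tested. In cultures that mix fused and unfused cells, fewer myotubes and less RNA per myotube cannot be told apart.

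**Figure D1:**
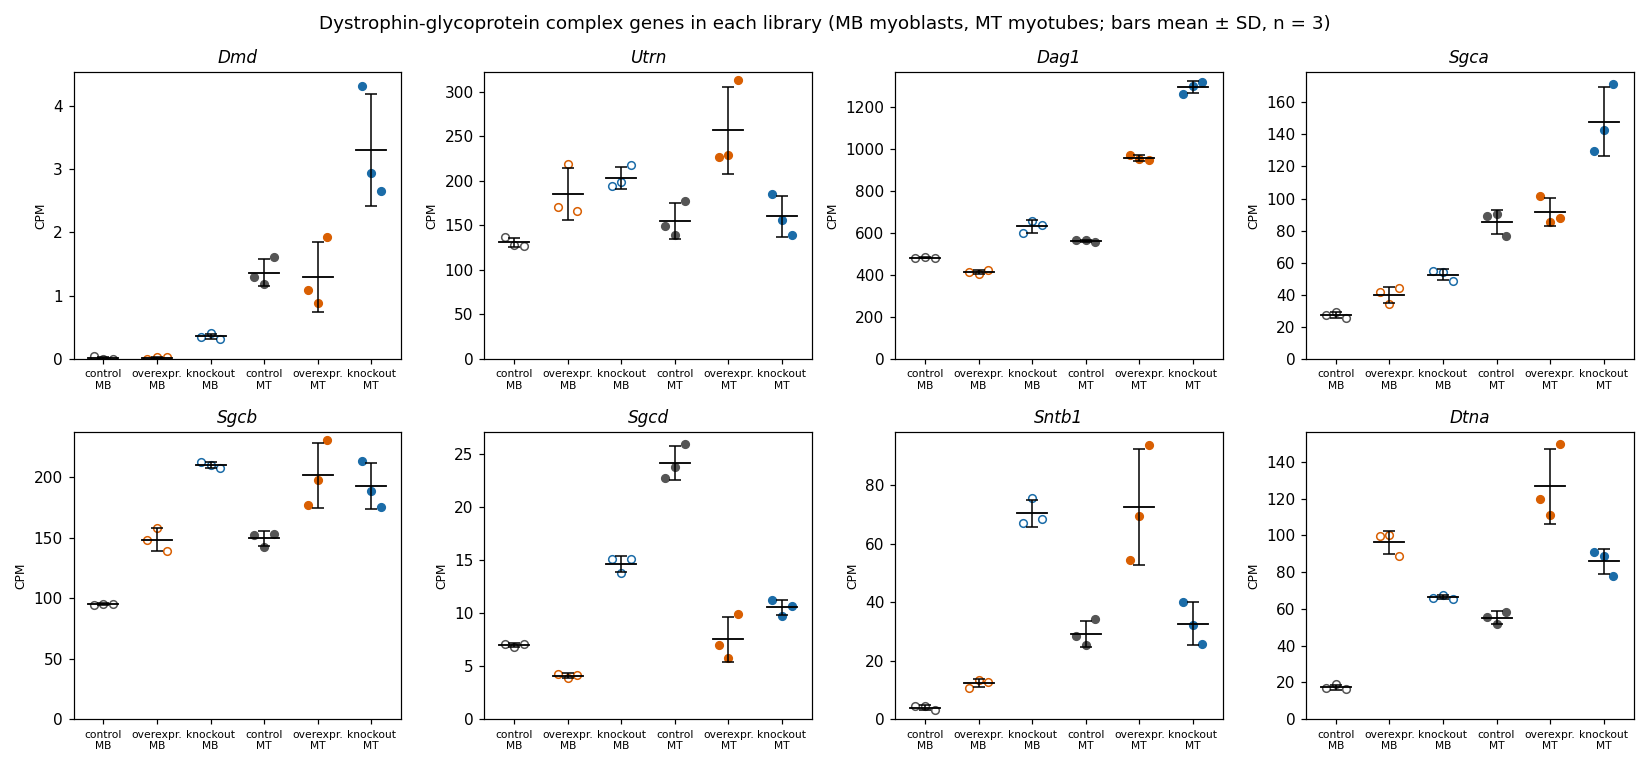
Level of each of the 8 genes in every library, in CPM on a linear axis from 0; open points are myoblasts (MB), filled points myotubes (MT), grey control, orange overexpressor and blue knockout, with the mean and SD of 3 libraries. Dmd is near 0 in control and overexpressor myoblasts, the groups of Dag1 do not overlap, and Sgcd is highest in control myotubes (22.8 to 26 CPM).

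Utrophin RNA was abundant in every group and changed little with differentiation. Utrn (ENSMUSG00000019820, chromosome 10, 12382188 to 12869365, minus strand) had 136.6, 128.3 and 127.2 CPM in control myoblasts, 171.1, 218.9 and 166.4 CPM in overexpressor myoblasts and 193.6, 198.9 and 217.6 CPM in knockout myoblasts. Both clones lay above control as myoblasts without overlap, and they overlapped each other. In myotubes Utrn had 149.2, 138.7 and 177.7 CPM in control, and the overexpressor had 227.2, 229.4 and 313 CPM and the knockout 185.3, 155.8 and 139.4 CPM. All 3 overexpressor myotube libraries stood above the control range, as did replicate A of the knockout, whose group overlapped control. Against control, Utrn was higher in overexpressor myoblasts (log2 fold change 0.5, SE 0.14, adjusted p = 0.00756), knockout myoblasts (0.64, SE 0.14, adjusted p = 0.000954) and overexpressor myotubes (0.72, SE 0.14, adjusted p = 0.000268). In knockout myotubes the difference from control was 0.05 (SE 0.14, adjusted p = 0.783), and its sign turned when knockout replicate A or control replicate B was left out (-0.071 and -0.031).

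With differentiation, Utrn rose in the overexpressor (log2 fold change 0.47, SE 0.14, adjusted p = 0.00729) and fell in the knockout (-0.34, SE 0.14, adjusted p = 0.0381), while the 0.25 of control did not pass (SE 0.14, adjusted p = 0.129). The fall in the knockout was lost with DESeq2 size factors (adjusted p = 0.118), with no filter on low counts (0.104), and without knockout myoblast replicate B or C or knockout myotube replicate B or C (0.0621 to 0.167). The difference between the responses of knockout and control was -0.59 (SE 0.2, adjusted p = 0.0192), and it was lost without control myotube replicate C (0.0581) or knockout myotube replicate C (0.0572), with library totals (0.051) and with no filter (0.066).

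The balance of the 2 relatives was read as Dmd counts per 10000 Utrn counts in the same library, a ratio free of library scaling. It was 2.74, 0 and 0 in control myoblasts, 0, 0.985 and 1.39 in overexpressor myoblasts and 17.8, 20.1 and 14.7 in knockout myoblasts. In myotubes it was 86.3, 85.8 and 90.3 in control, 47.7, 38.7 and 61.2 in the overexpressor and 233.1, 188 and 190.5 in the knockout. The 3 myotube groups did not overlap: the overexpressor was lowest at 49.2 ± 11.3, control followed at 87.5 ± 2.47 and the knockout was highest at 203.9 ± 25.3 (SD, n = 3). On the log2 scale, with 0.5 counts added to each gene, the overexpressor lay 0.86 below control (difference -0.86, SE 0.19) and the knockout 1.21 above it (SE 0.1). An exact two-sided permutation test gave p = 0.1 for both, the smallest that 3 against 3 libraries allow (0.112 after adjustment over the 9 pairs of groups), so this design cannot reach the threshold of 0.05.

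Levels of different genes can be compared only per length. Divided by the length of all annotated exons in kilobases, Dmd held 0.0573, 0.0545 and 0.139 CPM per kilobase in the myotubes of control, overexpressor and knockout, against 9.07, 15 and 9.36 for Utrn. Drp2, which encodes another protein of the family, held 9.44, 4.12 and 12.4 CPM per kilobase in the same groups. On this scale Dmd stayed below both relatives in all 18 libraries.

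**Figure D2:**
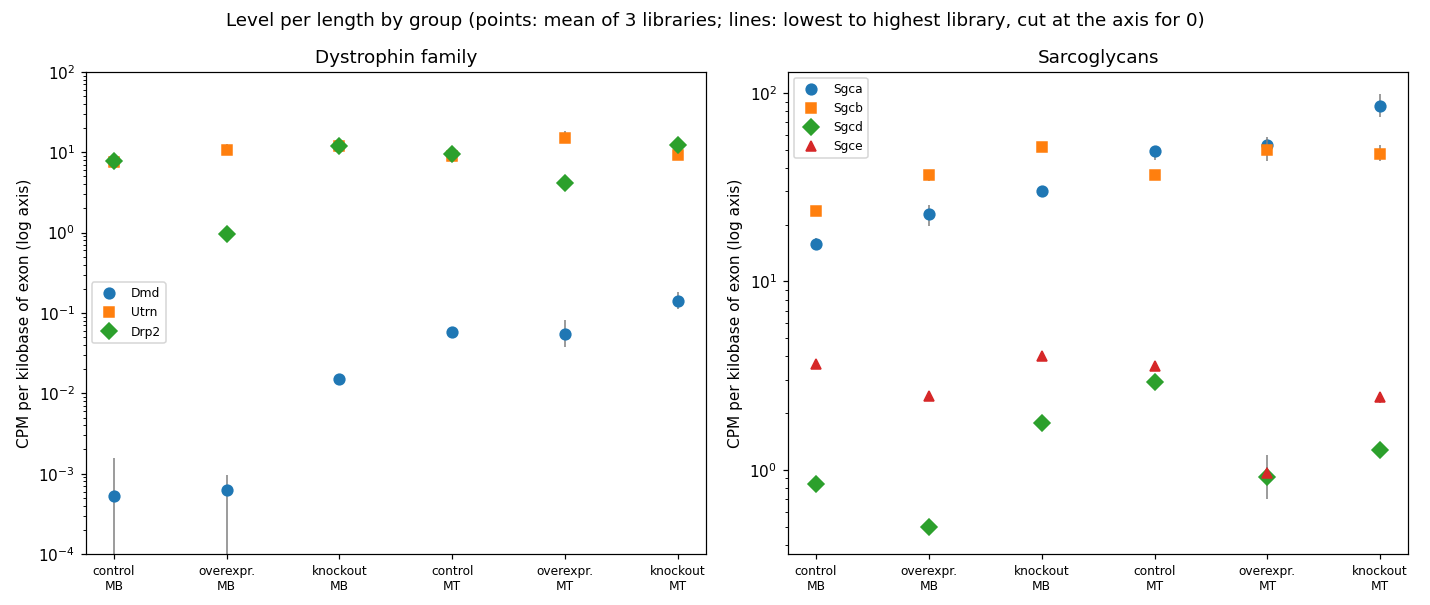
CPM per kilobase of exon on log axes for the dystrophin family (left) and the sarcoglycans (right) in the 6 groups; points are means of 3 libraries and lines run from the lowest to the highest library. Dmd lies below Utrn and Drp2 throughout, and Sgcd and Sgce lie below Sgca and Sgcb in every group.

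Dystroglycan RNA was the most abundant of the 8 in CPM in every group. Dag1 (ENSMUSG00000039952, chromosome 9, 108204634 to 108263958, minus strand) had 477.8, 482.4 and 480.1 CPM in control myoblasts, 411.9, 404.1 and 420.3 CPM in overexpressor myoblasts and 598.1, 656.5 and 636.7 CPM in knockout myoblasts. In myotubes it had 566.2, 563.9 and 557 CPM in control, and the overexpressor had 970.8, 949.4 and 945.8 CPM and the knockout 1262, 1297.9 and 1315.7 CPM. No 2 of the 6 groups overlapped: overexpressor myoblasts were lowest, followed by control myoblasts, control myotubes, knockout myoblasts, overexpressor myotubes and knockout myotubes. Against control, Dag1 was lower in overexpressor myoblasts (log2 fold change -0.22, SE 0.05, adjusted p = 0.00123), but higher in overexpressor myotubes (0.76, SE 0.05, adjusted p = 2.11e-10). The knockout was higher than control at both stages, by 0.39 in myoblasts (SE 0.05, adjusted p = 1.79e-06) and by 1.2 in myotubes (SE 0.05, adjusted p = 4.36e-13).

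Dag1 rose 2.32-fold in the overexpressor (log2 fold change 1.21, SE 0.05, adjusted p = 2.64e-13) and 2.05-fold in the knockout (1.04, SE 0.05, adjusted p = 9.42e-12). In control it rose by 0.23 (SE 0.05, adjusted p = 0.000485), and with library totals in place of TMM it was -0.015. That scaling moved the median of all genes from 0.07 to -0.17, so Dag1 lay above the median gene under both. The response was larger than that of control by 0.98 in the overexpressor (SE 0.07, adjusted p = 2.48e-09) and by 0.81 in the knockout (SE 0.07, adjusted p = 2.77e-08). The 0.18 between the responses of the 2 clones passed the threshold (SE 0.07, adjusted p = 0.0414) and was lost under most alternatives, among them DESeq2 size factors (adjusted p = 0.205) and a replicate block (0.0652).

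The sarcoglycan genes Sgca, Sgcb and Sgcd were all higher than control in knockout myoblasts, but did not move together in the other comparisons with control. In overexpressor myoblasts Sgca and Sgcb were higher and Sgcd was lower. In myotubes Sgcd was lower in both clones, while Sgcb was higher in both. Sgca (ENSMUSG00000001508, chromosome 11, 94962791 to 94976327, minus strand), which encodes alpha-sarcoglycan, a subunit of striated muscle, had 27.3, 29.4 and 25.3 CPM in control myoblasts, 41.5, 34 and 43.9 CPM in overexpressor myoblasts and 54.5, 54.2 and 48.5 CPM in knockout myoblasts. The myoblast groups did not overlap. In myotubes it had 89.1, 90.2 and 76.6 CPM in control, and the overexpressor had 101.3, 85.1 and 87.7 CPM and the knockout 129.8, 142.6 and 171.7 CPM. Control and overexpressor myotubes overlapped and the knockout lay above both. Sgca rose with differentiation 3.12-fold for control, 2.3-fold for the overexpressor and 2.82-fold for the knockout (log2 fold change 1.64, 1.2 and 1.5, SE 0.11 each, adjusted p = 4.92e-10, 2.85e-08 and 2.63e-09). Against control it was higher by 0.54 in overexpressor myoblasts (SE 0.11, adjusted p = 0.000767), by 0.94 in knockout myoblasts (SE 0.11, adjusted p = 1.29e-06) and by 0.79 in knockout myotubes (SE 0.11, adjusted p = 5.05e-06). The 0.1 of overexpressor myotubes did not pass (SE 0.11, adjusted p = 0.466), but reached 0.25 with library totals (adjusted p = 0.0493, where the median of all genes was 0.11).

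Sgcb (ENSMUSG00000029156, chromosome 5, 73632749 to 73647790, minus strand) encodes beta-sarcoglycan, which is made in many tissues. It had 94.4, 95.6 and 95.4 CPM in control myoblasts, 148.6, 158.1 and 138.7 CPM in overexpressor myoblasts and 213.1, 210.1 and 208.2 CPM in knockout myoblasts. In myotubes it had 152.4, 142.7 and 153.4 CPM in control, and the overexpressor had 177.2, 197.8 and 230.7 CPM and the knockout 213.9, 188.8 and 175.8 CPM. Knockout myoblasts therefore held Sgcb at the level of the myotubes of both clones, and overexpressor myoblasts at that of control myotubes. Sgcb rose with differentiation in control (log2 fold change 0.65, SE 0.08, adjusted p = 2.22e-06) and in the overexpressor (0.44, SE 0.08, adjusted p = 0.000158). In the knockout the change was -0.13 (SE 0.08, adjusted p = 0.196), and it passed as a fall with library totals (-0.29, adjusted p = 0.00808, where the median of all genes was -0.24) or without knockout myotube replicate A (-0.2, adjusted p = 0.0472). Against control, Sgcb was higher by 0.64 in overexpressor and 1.15 in knockout myoblasts (SE 0.08 and 0.09, adjusted p = 6.28e-06 and 2.52e-09), and by 0.43 and 0.37 in the respective myotubes (SE 0.08 each, adjusted p = 0.000236 and 0.000887).

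Delta-sarcoglycan RNA rose with differentiation in control, rose less in the overexpressor and fell in the knockout. Sgcd (ENSMUSG00000020354, chromosome 11, 46896253 to 47988969, minus strand) had 7.08, 6.79 and 7.08 CPM in control myoblasts, 4.27, 3.86 and 4.18 CPM in overexpressor myoblasts and 15.1, 13.8 and 15.1 CPM in knockout myoblasts. In myotubes it had 22.8, 23.8 and 26 CPM in control, and the overexpressor had 6.95, 5.77 and 9.88 CPM and the knockout 11.2, 9.73 and 10.7 CPM. Every control myotube library lay above every other library of the study, and overexpressor and knockout myotubes overlapped. Sgcd rose 3.46-fold with differentiation in control (log2 fold change 1.79, SE 0.14, adjusted p = 2.59e-09) and 1.83-fold in the overexpressor (0.87, SE 0.14, adjusted p = 3.46e-05), and fell 1.39-fold in the knockout (-0.47, SE 0.14, adjusted p = 0.0059). Against control myotubes it was 3.21-fold lower in the overexpressor (-1.68, SE 0.14, adjusted p = 6.95e-09) and 2.29-fold lower in the knockout (-1.2, SE 0.14, adjusted p = 4.52e-07). As myoblasts the clones went in opposite directions, 0.77 below control in the overexpressor (-0.77, SE 0.15, adjusted p = 0.00032) and 1.07 above it in the knockout (SE 0.14, adjusted p = 3.53e-06). The summed level of 6 fibroblast markers (Pdgfra, Dpt, Dcn, Lum, Pi16 and Tcf21) was 189.5 to 215.2 CPM in control myotubes against 17.9 to 76.1 CPM in the other groups. In overexpressor myotubes it was 17.9 to 21 CPM, and all 5 of the markers tested were called lower than in control (57.1% of all genes called). In knockout myotubes it was 64.9 to 76.1 CPM, and 3 of the 5 were called lower (68% of all genes called). Between control and knockout myotubes the sum differed through Dpt (89 CPM in control against 0.429 CPM in knockout myotubes) and Pi16 (39.5 against 2.44 CPM), while Dcn (46.6 against 48.2 CPM) and Lum (2.53 against 2.48 CPM) were at like means in both, Pdgfra had its highest mean in knockout myoblasts (36.9 CPM) and Tcf21 was at or near 0 everywhere. Their part in the level of Sgcd was not tested.

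Per kilobase of exon, alpha-sarcoglycan stood at 49.2 CPM in control myotubes, beta at 36.9, epsilon at 3.54 and delta at 2.93. In control myoblasts the order was beta (23.5), alpha (15.8), epsilon (3.65) and delta (0.846). The longest transcript in place of all exons kept alpha and beta above epsilon and delta in control myotubes and raised the lower pair most, to 8.5 and 5.43.

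Beta1-syntrophin RNA was higher in knockout myoblasts than in any control library. Sntb1 (ENSMUSG00000060429, chromosome 15, 55636388 to 55906949, minus strand), whose product is an adaptor that gathers signalling proteins on dystrophin and dystrobrevin, had 4.33, 4.35 and 2.94 CPM in control myoblasts, 10.7, 13.5 and 12.8 CPM in overexpressor myoblasts and 67, 75.8 and 68.5 CPM in knockout myoblasts. The 3 myoblast groups were far apart. In myotubes it had 28.4, 25.3 and 34.1 CPM in control, and the overexpressor had 54.4, 69.4 and 93.7 CPM and the knockout 40.2, 32.2 and 25.7 CPM. Control and knockout myotubes overlapped, and the overexpressor lay above both. Against control, Sntb1 was 18.1-fold higher in knockout myoblasts (log2 fold change 4.18, SE 0.23, adjusted p = 4.99e-10), 3.17-fold higher in overexpressor myoblasts (1.67, SE 0.22, adjusted p = 1.64e-05) and 2.47-fold higher in overexpressor myotubes (1.31, SE 0.2, adjusted p = 3.83e-05). The 0.16 of knockout myotubes did not pass (SE 0.2, adjusted p = 0.49) and was -0.015 without knockout replicate A. With differentiation Sntb1 rose 7.54-fold in control and 5.87-fold in the overexpressor (2.91 and 2.55, SE 0.22 and 0.21, adjusted p = 1.27e-08 and 2.83e-08), and fell 2.15-fold in the knockout (-1.11, SE 0.2, adjusted p = 0.000171). The knockout response was lower than that of control (difference -4.02, SE 0.3, adjusted p = 2.86e-08), while the -0.36 of the overexpressor did not pass (SE 0.29, adjusted p = 0.375).

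Alpha-dystrobrevin RNA was higher in both clones than in control at both stages, and highest in the overexpressor. Dtna (ENSMUSG00000024302, chromosome 18, 23415135 to 23659715, plus strand), whose product binds dystrophin and the syntrophins, had 16.7, 18.9 and 16.2 CPM in control myoblasts, 99.7, 100.2 and 89 CPM in overexpressor myoblasts and 65.9, 67.5 and 65.4 CPM in knockout myoblasts. In myotubes it had 55.8, 51.7 and 58.3 CPM in control, and the overexpressor had 119.7, 110.9 and 149.6 CPM and the knockout 90.9, 88.8 and 78 CPM. Within each stage the 3 lines did not overlap, and all 6 libraries of control lay below all 12 of the clones. In overexpressor myoblasts Dtna was 5.57-fold above control (log2 fold change 2.48, SE 0.1, adjusted p = 1.34e-12) and in knockout myoblasts 3.83-fold (1.94, SE 0.1, adjusted p = 2.07e-11). In myotubes the excess was 2.29-fold (1.2, SE 0.1, adjusted p = 6.15e-09) and 1.55-fold (0.64, SE 0.1, adjusted p = 1.44e-05). It rose 3.19-fold with differentiation in control (1.67, SE 0.1, adjusted p = 6.33e-11), but by 0.4 in the overexpressor (SE 0.1, adjusted p = 0.00153) and by 0.37 in the knockout (SE 0.1, adjusted p = 0.00252), the last lost with library totals (adjusted p = 0.076). Both responses were smaller than that of control, by -1.28 and -1.3 (SE 0.14 each, adjusted p = 6.78e-07 and 4.83e-07). Of the exons of Dtna, 90 bases lie opposite the antisense gene Gm47898, which had 5 counts in all libraries together; whether the counting used strand is not given in the sources used here.

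**Figure D3:**
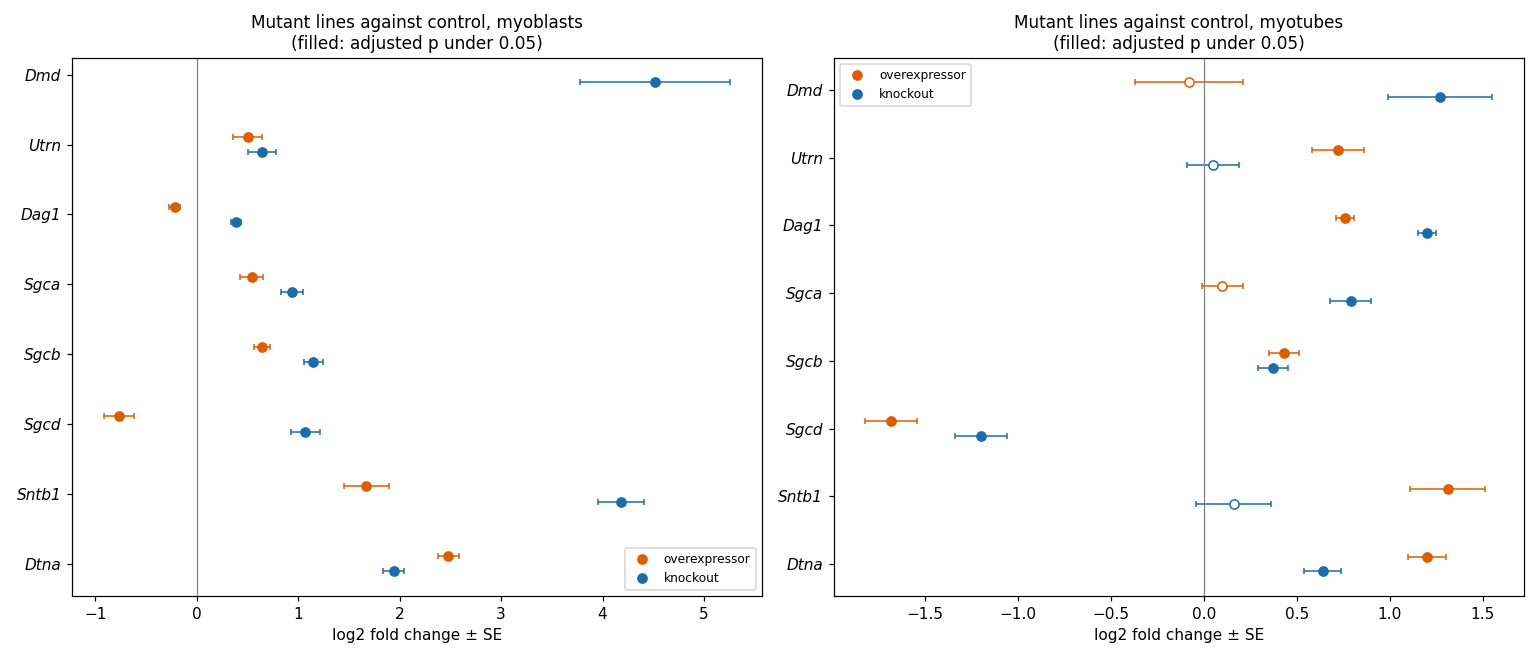
Log2 fold change ± SE of each clone against control in myoblasts (left) and myotubes (right), from edgeR; filled points passed an adjusted p of 0.05. Apart from Dmd, Sntb1 (3.87 CPM in control myoblasts) and Dtna stand furthest from 0 in myoblasts, and Sgcd is lower in both clones in myotubes. No value is drawn for Dmd in overexpressor against control myoblasts (both at the floor), and the fitted Dmd value of knockout myoblasts depends on the constant added to 2 control counts. The Dmd value of overexpressor myotubes and the Utrn and Sntb1 values of knockout myotubes change sign under other scalings or without 1 library.

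The counts of the whole complex were read against all 17912 genes tested, with the edgeR quasi-likelihood test at an adjusted p under 0.05. In myoblasts, 5 of the 8 genes were higher and 2 lower in the overexpressor than in control, where 40.4% of all genes were called (20.7% higher, 19.7% lower), and 8 were higher in the knockout, where 53% were called (26.4% higher, 26.6% lower). In myotubes, 5 were higher and 1, Sgcd, lower in the overexpressor (57.1% of all genes called, 26.2% higher and 30.9% lower), and again 5 higher and 1, Sgcd, lower in the knockout (68% called, 31% higher and 37% lower). The median log2 fold change of the 8 was 0.52 and 1.11 in overexpressor and knockout myoblasts, and 0.58 and 0.5 in the respective myotubes, against 0.02, 0.02, -0.04 and -0.07 over all genes. Without Dmd, the medians of the other 7 were 0.54, 1.07, 0.72 and 0.37. These comparisons share their control libraries. The 8 genes were chosen with earlier results of these data known, so their distance from all genes, here and in the comparisons that follow, is a description.

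Between the clones, 1 gene of the 8, Dtna, was higher in overexpressor than in knockout myoblasts and 6 were lower (52.6% of all genes called, 25.7% higher and 26.9% lower), with Utrn not called. In myotubes Utrn, Sntb1 and Dtna were higher in the overexpressor and Dmd, Dag1, Sgca and Sgcd lower (59.7% called, 30.6% higher and 29.1% lower). Sntb1 went from 5.71-fold lower in overexpressor than in knockout myoblasts (log2 fold change -2.51, SE 0.21, adjusted p = 5.76e-08) to 2.22-fold higher in myotubes (1.15, SE 0.2, adjusted p = 0.000159). The lower Sgcd of overexpressor myotubes (-0.49, SE 0.14, adjusted p = 0.00555) was lost when only these 2 groups were fitted (adjusted p = 0.0684).

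Differentiation raised 7 of the 8 genes in control, all but Utrn, where 62.8% of all genes were called (33.9% higher, 28.8% lower), and the 7 include Dag1, whose sign turned with library totals while it stayed above the median of all genes. It raised all 8 in the overexpressor (62.8% called, 29.8% higher and 33% lower). In the knockout it raised Dmd, Dag1, Sgca and Dtna, lowered Utrn, Sgcd and Sntb1, and left Sgcb uncalled (65.4% called, 29.8% higher and 35.6% lower). The median log2 fold change of the 8 was 1.65, 1.03 and 0.12 (control, overexpressor, knockout), against 0.07, -0.02 and -0.08 over all genes. Without Dmd it was 1.64, 0.87 and -0.13. The test of the difference in response called 1 gene higher and 3 lower in the overexpressor than in control (39% of all genes called, 16.6% higher and 22.3% lower), 1 higher and 6 lower in the knockout than in control (50.1% called, 20.2% higher and 29.9% lower), and 6 higher and 0 lower in the overexpressor than in the knockout (46.7% called, 24.3% higher and 22.4% lower). At an unadjusted p under 0.05 the count of lower responses in that last test was 0 as well, and the DESeq2 Wald test called none. Without overexpressor myoblast replicate B or knockout myotube replicate A, Sgca was called lower there (-0.4 and -0.38, adjusted p = 0.0361 and 0.0487). In both comparisons with control the gene with the higher response was Dag1. The 5 myotube markers were all called lower in the response of the knockout than in that of control (median -3.93).

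**Figure D4:**
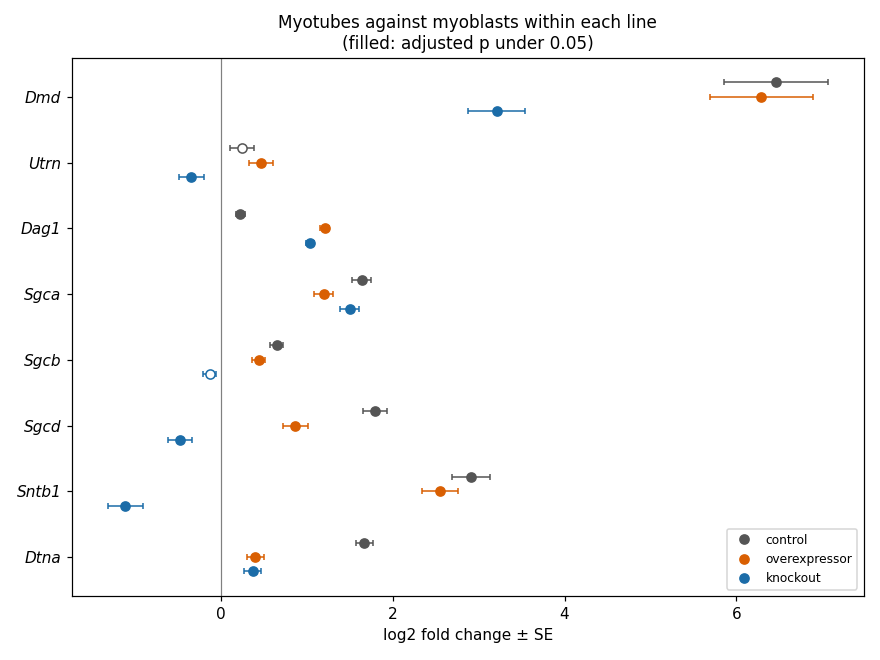
Log2 fold change ± SE of myotubes against myoblasts in each line, from edgeR; filled points passed an adjusted p of 0.05. The knockout (blue) lies left of control (grey) for every gene but Dag1, with Sntb1 at -1.11 against 2.91; for Sgca that order turns with DESeq2 size factors, the small control value of Dag1 (0.23) changes sign with library totals, as the median of all genes goes to -0.17, and the Dmd values of control and overexpressor rest on 2 myoblast counts each.

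The other genes of the complex filled a list of 10, of which 7 passed the filter: Sgce, Sspn, Sntb2, Dtnb, Nos1, Cav3 and Drp2. Sntg1 and Sntg2 had 0 counts in every library, and Sgcz had counts in 1 overexpressor myoblast library alone. Against control, 4 were lower in overexpressor myoblasts, 2 were higher and 2 lower in knockout myoblasts, 5 were lower in overexpressor myotubes, and 2 were higher and 5 lower in knockout myotubes, beside 40.4%, 53%, 57.1% and 68% of all genes called. Differentiation raised 4 and lowered 2 in control, raised 3 and lowered 4 in the overexpressor, and raised 3 and lowered 3 in the knockout, beside 62.8%, 62.8% and 65.4% of all genes.

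The gene furthest from control in the myotubes of the clones was Nos1, which encodes the neuronal nitric oxide synthase that muscle anchors to the complex through syntrophin. It had 31.1, 27.2 and 25.5 CPM in control myotubes, 0.921, 0.913 and 0.722 CPM in the overexpressor and 3.14, 3.53 and 2.97 CPM in the knockout. No libraries of these groups overlapped, and Nos1 was 32.7-fold lower in the overexpressor (log2 fold change -5.03, SE 0.14, adjusted p = 4.02e-15) and 8.68-fold lower in the knockout (-3.12, SE 0.13, adjusted p = 3.65e-13). As myoblasts the lines held 3.62 ± 0.362, 2.11 ± 0.129 and 2.07 ± 0.228 CPM (control, overexpressor, knockout; SD, n = 3). Of the fibroblast markers, Dpt and Pi16 were likewise highest in control myotubes while Dcn and Lum were at like means in control and knockout myotubes. In overexpressor myotubes all 5 fibroblast markers tested were called lower than in control myotubes (57.1% of all genes called). The part of these markers in the level of Nos1 was not tested.

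Cav3, the muscle caveolin that binds dystroglycan, had 9, 10 and 8 counts in control myoblasts and 0 counts in all 3 overexpressor myoblast libraries, but 24, 29.3 and 23 CPM in knockout myoblasts. Against the floor of 3 counts per library, the knockout myoblasts were at least 366.8-fold higher than the overexpressor myoblasts. In myotubes Cav3 reached 126.7 ± 6.03, 92.2 ± 16.2 and 163.3 ± 19.5 CPM for control, overexpressor and knockout (SD, n = 3), with a lower level in the overexpressor (log2 fold change -0.46, SE 0.12, adjusted p = 0.00361). The higher level in the knockout (0.37, SE 0.12, adjusted p = 0.0128) was lost without control myotube replicate C (adjusted p = 0.0527) or knockout myotube replicate C (0.0703).

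Drp2 and Sgce were low in the overexpressor at both stages. Drp2 had 66.8 ± 0.405 CPM in control and 8.23 ± 0.839 CPM in overexpressor myoblasts, 8.12-fold less (log2 fold change -3.02, SE 0.09, adjusted p = 1.74e-14), and 80.8 ± 1.72 against 35.3 ± 4.52 CPM in myotubes (-1.2, SE 0.08, adjusted p = 4.49e-10). Sgce, the epsilon-sarcoglycan gene, had 38.7 ± 1.67 against 26 ± 1.51 CPM in myoblasts (-0.58, SE 0.07, adjusted p = 3.3e-06) and 37.5 ± 1.69 against 10.2 ± 0.616 CPM in myotubes (SD, n = 3; -1.88, SE 0.07, adjusted p = 3.68e-13). Sntb2, a syntrophin gene, fell with differentiation in all 3 lines, most in the knockout, from 72.6 ± 4.44 to 28.8 ± 5.02 CPM (SD, n = 3; -1.33, SE 0.1, adjusted p = 2.72e-09). Dtnb fell in all 3 as well, in control from 11.9 ± 0.729 to 6.97 ± 0.257 CPM (SD, n = 3). Sspn, the sarcospan gene, stayed between 84.4 and 107.4 CPM in the group means, and its calls were lost under several alternatives.

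**Figure D5:**
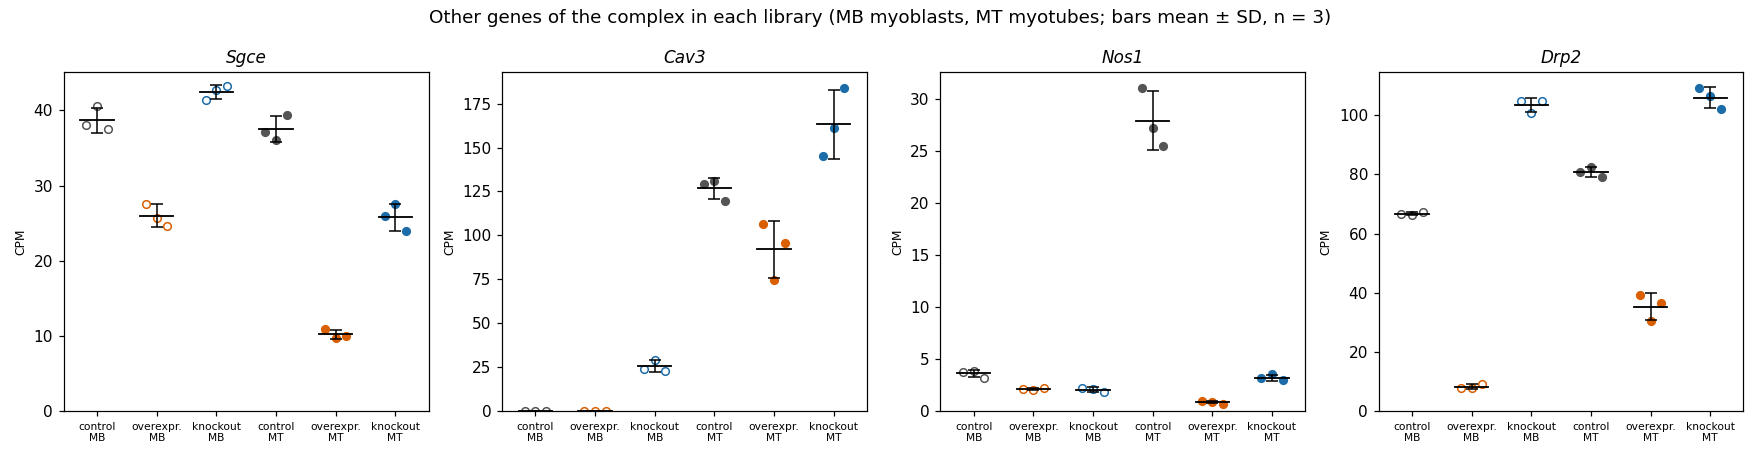
CPM in every library for 4 further genes of the complex, on linear axes from 0, with the mean and SD of 3 libraries; open points are myoblasts (MB) and filled points myotubes (MT). Cav3 is raised in knockout myoblasts, and Nos1 is high in control myotubes (25.5 to 31.1 CPM) and not above 3.86 CPM in any other library.

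Around the complex, the matrix ligands of dystroglycan (laminin chains, perlecan, agrin and biglycan, 10 genes) were called as follows: 5 were higher and 5 lower in overexpressor myoblasts, 2 higher and 5 lower in knockout myoblasts, 1 higher and 9 lower in overexpressor myotubes, and 2 higher and 8 lower in knockout myotubes. Over all genes, 40.4%, 53%, 57.1% and 68% were called in these 4 comparisons. In the myotubes of both clones, the highest log2 fold change against control was that of Lama2, the laminin chain of muscle basement membrane. Lama2 stood at 101.9 ± 10.3 and 96 ± 8.59 CPM against 36.9 ± 3.36 CPM in control (SD, n = 3, log2 fold change 1.46 and 1.38, SE 0.09 each, adjusted p = 1.41e-10 and 2.72e-10). The lowest log2 fold change was that of Lama1, at 0.079 ± 0.0347 and 0.255 ± 0.0563 CPM against 10.5 ± 1.29 CPM (SD, n = 3, -7.03 and -5.33, SE 0.33 and 0.29, adjusted p = 3.41e-12 and 2.21e-11). In the myoblasts of both clones, the lowest log2 fold change of the list was that of biglycan (Bgn). It had 3204.4 ± 97.7 CPM in control myoblasts against 11.9 ± 1.96 CPM (overexpressor) and 541 ± 27.4 CPM (knockout) (SD, n = 3).

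Of 17 genes that build or prime the sugar chain by which dystroglycan binds laminin, 7 were higher and 4 lower in overexpressor than in control myoblasts, and 3 were higher and 4 lower in the knockout. In myotubes 2 were higher and 7 lower in the overexpressor, and 4 higher and 7 lower in the knockout. Against the 40.4%, 53%, 57.1% and 68% of all genes called, 11, 7, 9 and 11 of 17 are near those shares in myotubes and above and below them in overexpressor and knockout myoblasts. The count in overexpressor myoblasts went from 11 to 6 with no filter on low counts and to 7 without control myoblast replicate A, B or C. That in knockout myoblasts went from 7 to 12 when only these 2 groups were fitted, and to 4 without control myoblast replicate A or knockout myoblast replicate A. Of 11 cytoskeletal linkers and parallel adhesion genes, 8 were higher and 2 lower in knockout than in control myoblasts (53% of all genes called, 26.4% higher and 26.6% lower), led by desmin (Des; log2 fold change 1.63, SE 0.11, adjusted p = 4.67e-10). In myotubes 6 were higher and 4 lower in the overexpressor and 4 higher and 4 lower in the knockout (57.1% and 68% of all genes called). In overexpressor myoblasts 4 were higher and 4 lower (40.4% of all genes called), with the laminin receptor integrin alpha7 (Itga7) highest (2.5-fold, SE 0.09 on the log2 scale, adjusted p = 9.82e-10) and dysferlin (Dysf), a membrane repair protein, lowest (-1.67, SE 0.11, adjusted p = 7.1e-10).

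The 8 genes did not share 1 pattern over the libraries. Pearson correlations of log2 CPM over all 18 libraries, which share lines and stages and are given as a description, ran from -0.09 for Utrn with Sgcd to 0.95 for Sgcb with Sntb1. Dmd with Sgca stood at 0.94, Dag1 with Sgca at 0.86, and Dmd with Utrn at 0.29. All correlations of Dmd depend on the prior count of 2, which weighs on its log2 CPM in control and overexpressor myoblasts (0 to 2 counts). Among 10127 other genes with a mean of at least 5 CPM, Dmd ran closest to Pdhx and Hephl1 (0.987 each) and Myh8 (0.982), Utrn to Med6 (0.966), Ugp2 and Cacna2d1 (0.957 each), and Dag1 to Gnpat (0.985), Pald1 (0.982) and Tpm1 (0.979). For Sgca the closest were Macrod1 (0.99), Dus2 (0.989) and Sh2b1 (0.987), for Sgcb Prkg1 (0.977), Trdn (0.963) and Vta1 (0.961), and for Sgcd Zfas1 (0.958), Eaf1 (0.948) and Gpam (0.943). Sntb1 ran closest to Itga6 (0.97), Trdn (0.969) and Igfn1 (0.964), and Dtna to Sema6a (0.975) and Popdc3 (0.971).

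In each of the 3 myotube groups a single library was the highest of its group for Dmd, Utrn, Sgcb, Sgcd, Sntb1 and Dtna, namely replicate C of control, replicate C of the overexpressor and replicate A of the knockout. In 2 of the 3 groups, control and knockout, that same library was the lowest for both Dag1 and Sgca, and in the overexpressor it was the lowest for Dag1, with Sgca lowest in replicate B. Leaving out any of these 3 libraries moved no count of called genes of the complex by more than 1.5 times.

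Summed markers of other cell types were lower than the summed myoblast markers in every group. The highest of these sums was that of the 6 fibroblast markers in control myotubes, at 189.5 to 215.2 CPM. The 4 endothelial markers summed to at most 0.668 CPM, the 4 immune markers to at most 2.28 CPM and the 4 Schwann cell markers to at most 1.82 CPM in any library, with Sox10 at 0 counts throughout. The 4 adipocyte markers summed to 3.74 to 19.7 CPM and the 4 osteoblast markers to 11.3 to 102.8 CPM. The 5 myoblast markers (Myod1, Myf5, Cdh15, Pax7 and Des, the last also among the cytoskeletal linkers) summed to 1397.1 to 10435.5 CPM. Des had the highest mean of the 5 in every group and rose with differentiation in every line. Myf5 and Pax7 fell in every line, in control from 25.5 to 6.2 and from 42.1 to 5.64 CPM. Myod1 and Cdh15 fell in the overexpressor and rose in the knockout.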

How the data were processed

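The authors deposited raw read counts per Ensembl gene in 18 libraries; per the submitters' processing notes STAR 2.7.9a, featureCounts (Subread 2.0.3), FastQC 0.11.7, DESeq2 1.32.0 and mm10 were used. Settings, annotation release and strand use are not given in the sources used here. A deposited variance-stabilised table was not used. Of the gene IDs, 55190 matched GENCODE M21 (GRCm38); the rest held 0.0059% of counts.

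Counts were tested with edgeR 4.0.16 (R 4.3.3): filterByExpr, TMM, robust quasi-likelihood, 6 group coefficients over 18 libraries (12 residual degrees of freedom), 12 contrasts, Benjamini-Hochberg over 17912 genes, threshold 0.05. The fit was tested on simulated data for knockout against control myoblasts alone, with changes set only in well-counted genes. That test did not cover counts as low as those of Dmd in myoblasts or the differences in response. The log2 ratio of Dmd to Utrn had 0.5 counts added, since some Dmd counts were 0. DESeq2 1.42.0 was an alternative, beside other scalings, no filter, a replicate block, only the groups compared, and leaving out each library.

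Named genes were the 8 members, the tested genes of the complex list, the highest and lowest called gene of other lists, and the 3 genes best correlated with each member (correlations on log2 CPM, prior count 2). Members and lists were chosen with earlier results of these data known. Some genes that these rules and lists would name are not reported here.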

Additional observations from a re-analysis of the deposited data

Results flagged for a closer look

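Results are listed here where the differentiation response of 2 lines differed by a test of the difference itself (an interaction term in the edgeR fit, adjusted p given). No gene was searched for single outlying libraries, since that search was set for groups of 4 or more.

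The response of the knockout was lower than that of control for Sntb1 (-4.02, log2 scale, adjusted p = 2.86e-08), Dmd (-3.25, 0.00525, a fitted value that rests on 2 control myoblast counts), Sgcd (-2.26, 3.31e-08), Dtna (-1.3, 4.83e-07), Sgcb (-0.78, 3.44e-05) and Utrn (-0.59, 0.0192), and higher for Dag1 (0.81, 2.77e-08). The call of Utrn was lost with library totals (adjusted p = 0.051), with no filter on low counts (0.066) and without control or knockout myotube replicate C (0.0581 and 0.0572). Lower responses were not particular to the complex: all 5 myotube markers were called lower in the same test (median -3.93). These markers and all 8 genes were already higher than control in knockout myoblasts. The part of that starting level in the responses was not tested.

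The response of the overexpressor was lower than that of control for Dtna (-1.28, adjusted p = 6.78e-07), Sgcd (-0.92, 0.00114) and Sgca (-0.44, 0.0334), and higher for Dag1 (0.98, 2.48e-09). The call of Sgca was lost with DESeq2 size factors (adjusted p = 0.136), with library totals (0.195) and without several single libraries (0.0607 to 0.183).

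The response of the overexpressor was higher than that of the knockout for Sntb1 (3.66, adjusted p = 1e-07), Dmd (3.08, 0.00904), Sgcd (1.34, 3.08e-05), Utrn (0.81, 0.00303), Sgcb (0.57, 0.000847) and Dag1 (0.18, 0.0414). The call of Dag1 between the clones was lost under most alternatives, and the Dmd value there rests on 2 overexpressor myoblast counts. The contrasts share libraries and are not independent of each other.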

How the results depend on the processing

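Each count of called members stayed within 1.5 times its value under every alternative run. Dmd in overexpressor against control myotubes (-0.078) became 0.025 with DESeq2 size factors, 0.066 with library totals, 0.013 with only the groups compared and 0.026 by the DESeq2 Wald test, and ran from -0.37 to 0.14 without single libraries. The difference in response of knockout and control for Sgca became 0.013 with size factors and by the Wald test. That of overexpressor and knockout for Dtna became -0.024 with both, and ran from -0.089 to 0.11 without single libraries. Dag1 in control differentiation became -0.015 with library totals. Leaving out libraries gave -0.071 to 0.15 for Utrn and -0.015 to 0.31 for Sntb1 in knockout against control myotubes, -0.012 to 0.15 for Sgcb between the clones' myotubes, and -0.51 to 0.59 for the Dmd to Utrn ratio of overexpressor against control myoblasts. Library totals moved the median of all genes from 0.07 to -0.17 in control differentiation, so changes there are read relative to that shift. With the longest transcript as length, control myotubes held 39.5 (Sgcb), 5.43 (Sgcd) and 8.5 (Sgce) CPM per kilobase. A value of 1 count added to Dmd and Utrn, chosen after seeing the data, changed no direction.

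Replicate letters did not pair the libraries: over 45 same-letter pairs the correlation of deviations from the group means ran from -0.36 to 0.26 (median -0.02), and 0 libraries correlated best with their own letter. Over 90 different-letter pairs it ran from -0.32 to 0.45 (median 0.01), so some libraries of different groups shared deviations across letters. A block on the letters does not take up that sharing. With a replicate block, the calls of Utrn in knockout differentiation (adjusted p = 0.0546), Sgca in the response of overexpressor and control (0.0509) and Dag1 in that of the clones (0.0652) were lost, and no other member call changed. Depth limits the Dmd values of control and overexpressor myoblasts, which rest on 2 counts each.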
